A study of Mus musculus with 6 samples.

Results

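The transcription factor genes Pitx1, Tbx4, Shox2, Prrx1, Prrx2, Twist1, Twist2 and Msx1, which mark hindlimb or limb mesenchyme, were followed through periosteal cell populations before and after fracture. They were taken by symbol, 8 of the 30406 genes listed for all libraries, and UMIs of all 8 were found. Single-nucleus RNAseq was performed on the periosteum, the sheet of tissue that covers bone, of the mouse tibia, in 2 uninjured libraries, 2 libraries on day 3, 1 on day 5 and 1 on day 7 after fracture. All mice were C57BL6 by the labels and C57BL/6ScNj by the study's methods, aged 12 weeks, with both sexes mixed. Tibias of 4 mice were pooled for uninjured periosteum and of 4 to 9 mice after an open fracture that was left without stabilization, and whether these numbers hold for each duplicate is not stated. Fractured libraries also held the hematoma, so injury and tissue collected cannot be told apart. Nor is it stated whether the duplicates came from separate pools, so p-values measure the spread between these libraries, which may be technical.

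Limb mesenchyme keeps a record of its position in its transcription factors. Pitx1 and Tbx4 specify the hindlimb bud, and Tbx5 is their forelimb counterpart. Shox2 is a homeobox gene needed for the proximal limb skeleton, Prrx1 and Prrx2 are paired-type homeobox genes of limb and facial mesenchyme, Twist1 and Twist2 are basic helix-loop-helix factors that dimerize with E proteins and hold back osteoblast differentiation, and Msx1 is a homeobox repressor of progenitor cells. A regulatory element of Prrx1 is widely used to label limb mesenchyme, which gives rise to periosteal skeletal stem/progenitor cells (SSPCs).

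In GENCODE M21 on GRCm38, Prrx1 lies on the minus strand at chr1:163245119-163313710 and Prrx2 on the plus strand at chr2:30834972-30881251. Twist1 is at chr12:33957671-33959829 and Twist2 at chr1:91801461-91848028, both on the plus strand. Pitx1 (chr13:55825051-55836192), Shox2 (chr3:66971727-66981771) and Msx1 (chr5:37820485-37824583) are on the minus strand, and Tbx4 (chr11:85886422-85916097) is on the plus strand. Twist1 and Msx1 are short, at 2159 and 4099 bases, and 75.4% and 75.6% of these bases are exonic. The other 6 genes span 10045 to 68592 bases, of which 4.24% to 33.0% are exonic. UMIs from introns were counted, so levels are compared within a gene and not between genes. The libraries also differed in the lengths of the genes counted. Genes under 10 kb held 7.43% (day 5) to 24.2% (day 3 library 1) of UMIs. Genes over 100 kb held 36.1% (day 3 library 1) to 49.6% (day 5). The part of this difference in the levels of a gene between libraries was not tested. Shox2 overlaps Rsrc1, which had 12052 UMIs on the opposite strand, and Pitx1 overlaps the antisense gene Gm47071, which had 294 UMIs. The use of strand in the counting is not given in the sources used here, so reads of these partners cannot be told apart, and the values of Shox2 and Pitx1 are uncertain to that extent.

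The RefSeq promoter table held 7 of the 8 genes, all but Pitx1. The 250 bases before the RefSeq start are shown for both paralog pairs, because the members of each pair had unequal shares of their UMIs in perivascular nuclei. The shares were 6.25% for Prrx1 against 0.482% for Prrx2 and 0.826% for Twist1 against 16.0% for Twist2. Of the UMIs of all genes, 3.97% lay in these nuclei. The bases are written 5′ to 3′ on the gene's strand, with capitals for TAAT on either strand, the core letters that many homeodomain proteins bind. The windows are from GRCm38.p6 at chr1:163313651-163313900 (minus) for Prrx1, chr2:30845117-30845366 (plus) for Prrx2, chr12:33957421-33957670 (plus) for Twist1 and chr1:91801211-91801460 (plus) for Twist2.
Prrx1: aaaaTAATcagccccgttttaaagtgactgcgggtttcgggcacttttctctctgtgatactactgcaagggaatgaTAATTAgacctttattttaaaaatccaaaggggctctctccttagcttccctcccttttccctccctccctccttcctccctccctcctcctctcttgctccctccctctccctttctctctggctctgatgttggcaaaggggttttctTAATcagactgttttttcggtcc
Prrx2: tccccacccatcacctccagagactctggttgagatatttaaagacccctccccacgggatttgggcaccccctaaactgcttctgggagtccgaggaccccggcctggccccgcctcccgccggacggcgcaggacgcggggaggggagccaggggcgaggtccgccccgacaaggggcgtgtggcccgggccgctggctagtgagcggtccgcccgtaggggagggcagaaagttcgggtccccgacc
Twist1: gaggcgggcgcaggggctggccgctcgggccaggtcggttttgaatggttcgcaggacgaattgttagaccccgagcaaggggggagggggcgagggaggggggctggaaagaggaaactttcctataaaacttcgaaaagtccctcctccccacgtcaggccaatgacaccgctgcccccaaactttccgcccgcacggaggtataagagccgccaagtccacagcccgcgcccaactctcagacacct
Twist2: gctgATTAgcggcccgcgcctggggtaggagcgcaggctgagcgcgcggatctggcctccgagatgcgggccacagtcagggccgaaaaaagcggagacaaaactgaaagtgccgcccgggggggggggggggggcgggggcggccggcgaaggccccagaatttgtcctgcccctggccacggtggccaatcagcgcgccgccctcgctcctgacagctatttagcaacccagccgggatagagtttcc
The Prrx1 window held 4 matches of TAAT, 2 of which overlap, with a GC content of 47.6%. The Prrx2 window held 0 matches and had a GC content of 70.0%. The windows of Twist1 and Twist2 held 0 and 1 matches, at GC contents of 62.4% and 68.8%. Of the 27025 promoter windows of this length, 55.3% held TAAT, and the median GC content was 52%. The letters CANNTG, the E box bound by Twist dimers, were in none of these 4 windows and in 66.0% of all windows. A match is a description of these letters and shows no binding. The RefSeq start of Prrx2 lies inside the longer GENCODE gene, whose first base is chr2:30834972. That of Prrx1 also lies inside its GENCODE gene, which begins at chr1:163313710, within the window shown. The end of the Prrx1 window, with its last TAAT match, is thus part of that gene.

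The libraries held 655 to 4712 barcodes with 1499281 to 29796296 UMIs, and 18 barcode sequences were found in more than 1 library. After filtering and the removal of myogenic clusters, 6185 nuclei fell into 24 clusters, named as 14 populations from marker genes. The 2600 stromal nuclei were SSPC-like (Pi16, Dpp4), fibroblast-like, osteoblast-like, chondrocyte-like and IIFC-like, named for injury-induced fibrogenic cells. The IIFC-like nuclei were a cluster of 595 with Postn among its top genes and one of 353 led by Col5a3, Taco1 and Gm26917, without Postn among its top 10 genes, which held 10 of 12 and 10 of 14 IIFC-like nuclei of the uninjured libraries and 51 of 65 and 58 of 101 of those of day 3. The IIFC-like cluster led by Col5a3 was shallow, at a median of 950 UMIs per nucleus against 4203 in the one with Postn. Its score for IIFC markers was 2.39 against 3.64, so its name is less firm. The 2978 nuclei used as the other populations were endothelial-like, immune-like, pericyte/SMC-like (SMC, smooth muscle cell), osteoclast-like, Schwann-like and adipocyte-like. Tenocyte-like, Luzp2/Cldn1 fibroblast-like and myogenic-like nuclei stood in neither set, and 155 of the 201 myogenic-like nuclei came from day 3 library 2. Levels are given as CPM, the UMIs of a gene per 1000000 UMIs of the same nuclei, with exact Poisson 95% intervals that cover counting error only. Uninjured library 1 was the shallowest, with 90 stromal nuclei and 133532 stromal UMIs, so that 1 UMI there was worth 7.49 CPM. The other libraries had 125 to 1068 stromal nuclei with 405414 to 5355198 UMIs.

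The UMIs of these genes lay mostly in mesenchymal populations. Stromal nuclei held 45.5% of all UMIs but 50% (Msx1) to 80.4% (Shox2) of the UMIs of each gene. Endothelial-like and immune-like nuclei together held 38.7% of all UMIs and between 2.17% (Pitx1) and 10.7% (Msx1) of these genes' UMIs. The stromal level was above that of the other populations in all 6 libraries for Pitx1, Tbx4, Shox2, Prrx1 and Twist1. It was above in 5 of 6 libraries for Prrx2 and Twist2, and in 3 of 6 for Msx1. At clustering resolution 0.8, Tbx4 and Twist1 were above in 5 of 6 libraries, so that 3 genes and not 5 were above in all. For Tbx4 in day 3 library 1 the stromal level was 2.47 CPM from 1 UMI, and the 0 in the other populations allows 7.15, so a difference was not detectable there. In uninjured library 1, Pitx1 and Tbx4 also rest on 1 stromal UMI against 0. On the log2 scale with 10 CPM added, the mean difference between stromal and other nuclei was 2.74 ± 0.89 (SD, n = 6 libraries) for Prrx1, 1.90 ± 1.05 for Prrx2 and 1.76 ± 0.41 for Shox2. It was 1.37 ± 1.05 for Twist1, 1.00 ± 0.94 for Twist2, 0.93 ± 0.34 for Pitx1, 0.67 ± 0.48 for Tbx4 and 0.07 ± 0.63 for Msx1. These values describe clusters of the same nuclei and have no test. The 8 genes were left out of the features used for clustering and did not name clusters.

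**Figure D1:**
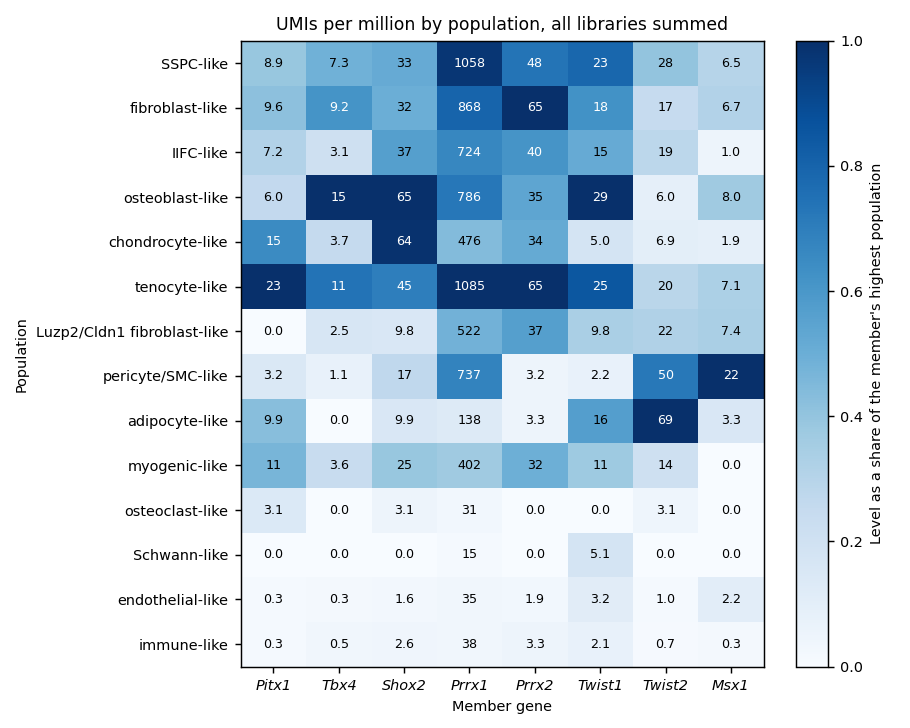
Level of each gene (columns) in each population (rows), as CPM over all 6 libraries summed, so deeper libraries weigh more; the shade is the level as a share of that gene's highest population. Prrx1 runs from 15.2 in Schwann-like to 1085 in tenocyte-like nuclei, while Twist2 is highest in adipocyte-like (69.0) and Msx1 in pericyte/SMC-like nuclei (21.6), which supplied different shares of their nuclei from each library.

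Pitx1 was sparse, with 138 UMIs in all clustered nuclei. In stromal nuclei its level was 7.49 and 11.0 CPM in the uninjured libraries, 17.3 and 7.12 on day 3, 7.47 on day 5 and 13.4 on day 7. The fractured libraries spanned both uninjured values. The other populations lay between 0 and 2.11 CPM in each library. Over libraries with at least 20 nuclei of a population, each weighted equally, tenocyte-like nuclei had the highest mean level, 25.3 ± 12.8 (SD, n = 5 libraries), with values of 15.1, 46.7, 25.1, 24.0 and 15.7 CPM. Chondrocyte-like nuclei followed with 14.2 ± 4.11 (n = 2) and fibroblast-like nuclei with 11.5 ± 13.0 (n = 6). The ranges of all neighbours in this order overlapped.

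Tbx4 had 89 UMIs, 68 of them stromal. Its stromal level was 7.49 and 14.1 CPM in uninjured periosteum, 2.47 and 13.7 on day 3, 3.17 on day 5 and 3.82 on day 7. The lower values on days 5 and 7 rest on 17 and 6 UMIs, and the day 3 library 2 value was close to the higher uninjured one. Osteoblast-like nuclei had the highest mean level, 18.9 ± 18.2 (n = 4 libraries), from 6 UMIs in uninjured library 2, 5 in day 3 library 2, 4 on day 5 and 0 on day 7. Its range overlapped that of the tenocyte-like nuclei, next in order with 11.2 ± 9.82 (n = 5).

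Tbx5, the forelimb counterpart, was also found in this hindlimb tissue, with 28 UMIs of which 15 were in SSPC-like nuclei. Its stromal level was 7.49 and 11.0 CPM in the uninjured libraries, 0 and 1.10 on day 3, 0.747 on day 5 and 2.55 on day 7. Both uninjured values were above the 4 fractured ones, but the first rests on 1 UMI and the 0 on day 3 allows a level of up to 7.40. SSPC-like nuclei were 36.7% and 28.9% of stromal nuclei without injury and 6.65% to 11.3% after fracture. Within them Tbx5 was at 0 and 21.6 CPM without injury, 0 and 4.44 on day 3, 0 on day 5 and 33.9 on day 7. The day 7 value rests on 3 UMIs and that of day 3 library 2 on 1. The 0 in uninjured library 1 allows up to 48.6, so these values do not order the groups. The part of makeup in the stromal values was not tested. The log2 fold change of fractured against uninjured libraries was -2.96 (SE 0.89), with an adjusted p of 0.0936 by edgeR's quasi-likelihood test. Over 12 alternatives the adjusted p ran from 0.0252 (without integration) to 0.261.

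Shox2 was spread over the skeletal lineages. Its stromal level was 52.4 and 55.5 CPM in the uninjured libraries, 19.7 and 34.5 on day 3, 37.9 on day 5 and 58.0 on day 7. Both day 3 values were below both uninjured values, and day 7 was above them. In osteoblast-like nuclei the level was 170.2 (28 UMIs) in uninjured library 2, against 51.9 (8 UMIs) in day 3 library 2, 42.9 (25 UMIs) on day 5 and 28.5 (2 UMIs) on day 7. The single uninjured library with at least 20 osteoblast-like nuclei was thus above the other 3. Chondrocyte-like nuclei, of which 169 and 245 of 425 came from days 5 and 7, had 63.7 and 70.2 CPM there. Fibroblast-like nuclei had a mean of 29.7 ± 17.8 (n = 6), and endothelial-like nuclei 1.09 ± 1.23 (n = 6).

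Prrx1 had 10895 UMIs and was found in every library of every mesenchymal population with at least 20 nuclei. Weighted equally over libraries, its mean level was highest in SSPC-like nuclei, 1008 ± 150.2 CPM (SD, n = 5 libraries), followed by tenocyte-like (901 ± 487, n = 5), fibroblast-like (798 ± 398, n = 6), osteoblast-like (777 ± 278, n = 4) and pericyte/SMC-like nuclei (735 ± 407, n = 4). Luzp2/Cldn1 fibroblast-like (603 ± 351, n = 3), IIFC-like (547 ± 242, n = 4) and chondrocyte-like nuclei (439 ± 222, n = 2) came next. Neighbours among these 8 populations overlapped in range, so their order is not resolved by these libraries. The 1 library with at least 20 myogenic-like nuclei had 468. Adipocyte-like nuclei had 144.6 in the 1 library with at least 20 of them, below every value of those 8 populations. Immune-like (52.7 ± 28.6, n = 5), endothelial-like (37.4 ± 22.9, n = 6) and osteoclast-like nuclei (18.5 ± 7.71, n = 2) were lower still, and Schwann-like nuclei had 0 UMIs in both libraries with at least 20 of them.

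**Figure D2:**
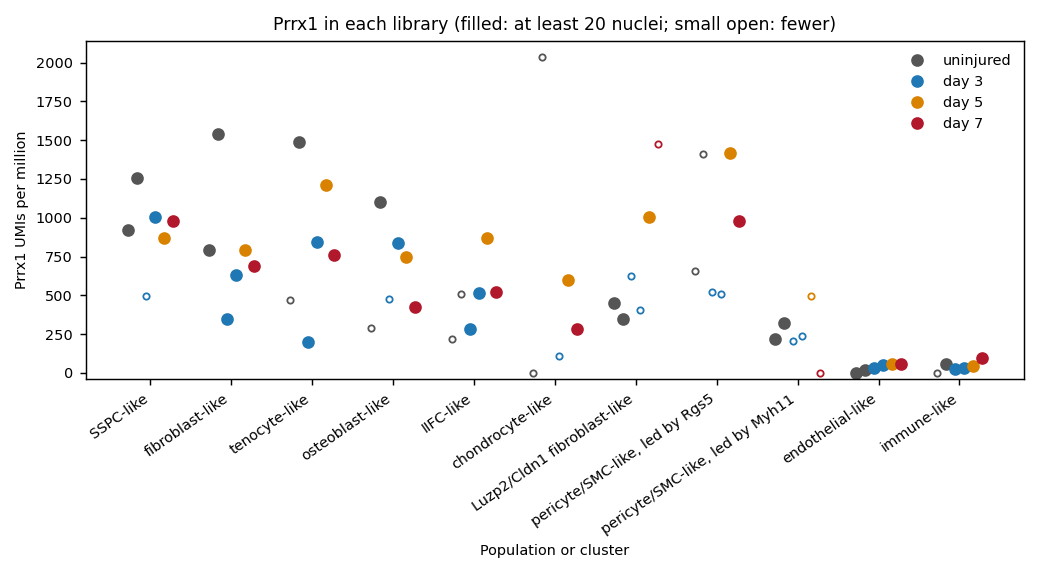
Prrx1 level in CPM (vertical axis) by population or cluster (horizontal axis), 1 point per library coloured by time point; large filled points have at least 20 nuclei and small open points fewer. SSPC-like nuclei lie between 868 and 1259 where filled, endothelial-like nuclei between 2.38 and 59.7, and the perivascular cluster led by Rgs5 lies above the one led by Myh11 in every library.

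Thinned to 500 UMIs per nucleus, Prrx1 was detected in 24.1% of 2594 stromal nuclei (exact binomial 95% interval 22.5% to 25.8%), with 6 shallower nuclei left out. Such intervals, here and below, pool the nuclei of all 6 libraries and cover counting error only. By library the stromal share ran from 13.6% (day 3 library 1) to 36.2% (uninjured library 2), with a mean of 23.4% (SD 7.68). The pooled share was 15 of 893 endothelial-like nuclei (1.68%) and 30 of 1643 immune-like nuclei (1.83%), which should lack the gene and give the background. This background differed between libraries. Endothelial-like nuclei ran from 0.476% (uninjured library 1) to 3.90% (day 7). Immune-like nuclei had 0 of 140 in day 3 library 1 and 10 of 138 (7.25%) on day 7. The stromal share on day 7 was 19.2%. Median depths of stromal, endothelial-like and immune-like nuclei were 2632, 2218 and 2055 UMIs. SSPC-like nuclei had 34.0% and pericyte/SMC-like nuclei 24.4%. Without thinning, the stromal, endothelial-like and immune-like shares were 61.3%, 5.93% and 8.79%. The other genes were detected in 0.308% (Msx1) to 2.89% (Shox2) of thinned stromal nuclei. For Shox2 these shares were 0 of 893 endothelial-like nuclei, which allows up to 0.336%, and 0.243% of immune-like nuclei. For Msx1 the stromal share was 0.308% (0.133% to 0.607%), against 0.112% (0.00284% to 0.622%) of endothelial-like nuclei and 0 of 1643 immune-like nuclei, which allows up to 0.183%. The stromal and endothelial-like intervals overlap, so a difference between them was not resolved at this depth.

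The perivascular nuclei fell into a cluster led by Rgs5, Trpc6 and Abcc9 (130 nuclei) and one led by Myh11, Ryr2 and Dgkb (112 nuclei), genes of pericytes and of smooth muscle. Prrx1 was higher in the Rgs5 cluster in all 6 libraries. Its levels there were 657 and 1413 CPM in the uninjured libraries, 522 and 506 on day 3, 1416 on day 5 and 979 on day 7. In the Myh11 cluster they were 216, 323, 206, 238, 498 and 0 in the same order. The 0 allows a level of up to 474, and the day 3 and day 7 values rest on 1 to 28 nuclei per cluster. Over all libraries the levels were 1251 (1147 to 1362) and 302 (256 to 354).

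Prrx2 was found in those 242 perivascular nuclei with 3 UMIs, at 3.25 (0.670 to 9.49) CPM, against 64.9 (55.8 to 75.0) in fibroblast-like nuclei. Its stromal level was 0 and 57.9 CPM in the uninjured libraries, 41.9 and 68.5 on day 3, 36.2 on day 5 and 49.1 on day 7. The 0 in uninjured library 1 allows up to 22.5, which is below all 5 other libraries, whose own range was 36.2 to 68.5. Mean levels were highest in tenocyte-like (72.2 ± 18.9, n = 5) and fibroblast-like nuclei (54.8 ± 31.0, n = 6), and 1.21 ± 1.89 (n = 6) in endothelial-like nuclei. Next to each other in the order of means, chondrocyte-like nuclei (27.8 and 32.5) lay above adipocyte-like nuclei (4.52 in 1 library), while the neighbours higher in the order overlapped in range.

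Twist1 and Twist2 lay in different proportions in osteoblast-like and perivascular nuclei. Osteoblast-like nuclei held 29 Twist1 UMIs and 6 Twist2 UMIs, and pericyte/SMC-like nuclei held 2 and 46. For Twist1 the osteoblast-like level was 29.0 (19.4 to 41.6) and the pericyte/SMC-like level 2.16 (0.262 to 7.82) CPM. For Twist2 the osteoblast-like level was 5.99 (2.20 to 13.0), the pericyte/SMC-like level 49.8 (36.4 to 66.4), and adipocyte-like nuclei had the highest level, 69.0 (42.7 to 105.5). The adipocyte-like value rests on 21 UMIs in 45 nuclei, with 3 and 17 of the UMIs in the uninjured libraries. These sums take different shares of each population from each library. Within uninjured library 2, Twist2 was at 89.9 (60.6 to 128.3) in pericyte/SMC-like nuclei and 6.08 (0.154 to 33.9) in osteoblast-like nuclei, and Twist1 at 0, which allows 8.99, and 36.5 (13.4 to 79.4). On day 5, Twist2 was at 23.5 (9.46 to 48.5) and 8.59 (2.79 to 20.0) in these populations, intervals that overlap.

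In stromal nuclei, Twist1 levels were 112 and 22.7 CPM without injury, 12.3 and 29.0 on day 3, 11.2 on day 5 and 7.65 on day 7. The value of 112 comes from 15 UMIs of the shallow uninjured library 1, and the other uninjured value lay within the day 3 range. Twist2 levels were 67.4 and 36.8 without injury, 32.1 and 29.0 on day 3, 8.22 on day 5 and 5.10 on day 7. Both uninjured values of Twist2 were above all 4 fractured values. The share of all genes tested that part in this way between these libraries was not counted. The separation of Twist2, and that of Tbx5 above, is therefore a description. In IIFC-like nuclei Twist2 was at 51.0 and 51.2 on day 3, against 10.6 on day 5 and 7.30 on day 7. The IIFC-like cluster led by Col5a3 held most of the day 3 nuclei and the one with Postn most of those of days 5 and 7. Twist2 was at 31.5 and 51.7 on day 3, 5.91 on day 5 and 11.7 on day 7 in the former, and at 104.9 and 50.7, 11.0 and 6.49 in the latter, with 1 to 25 UMIs behind each value. Both day 3 values were above those of days 5 and 7 in each cluster. In fibroblast-like nuclei Twist2 was at 132 and 36.7 without injury, 14.5 and 20.1 on day 3, 1.94 on day 5 and 3.59 on day 7.

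Msx1 was the sparsest gene, with 84 UMIs, and its stromal level was above that of the other populations in only 3 of 6 libraries. Summed over libraries, pericyte/SMC-like nuclei had the highest level, 21.6 (13.2 to 33.4) CPM from 20 UMIs, 6 and 7 of them in the uninjured libraries. Within uninjured library 2 the order differed, with 42.5 in osteoblast-like, 26.2 in fibroblast-like, 25.2 in tenocyte-like and 21.0 in pericyte/SMC-like nuclei, from 5 to 15 UMIs each. Msx1 was higher in the Rgs5 cluster in 2 libraries and in the Myh11 cluster in 2, and at 0 in both in the other 2. The stromal level was 0 and 21.9 in the uninjured libraries, 0 and 4.38 on day 3, 0.934 on day 5 and 0.637 on day 7. Uninjured library 2 held 28 of the 42 stromal UMIs, and the 0 in uninjured library 1 allows up to 22.5, so the uninjured level is known from 1 library.

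**Figure D3:**
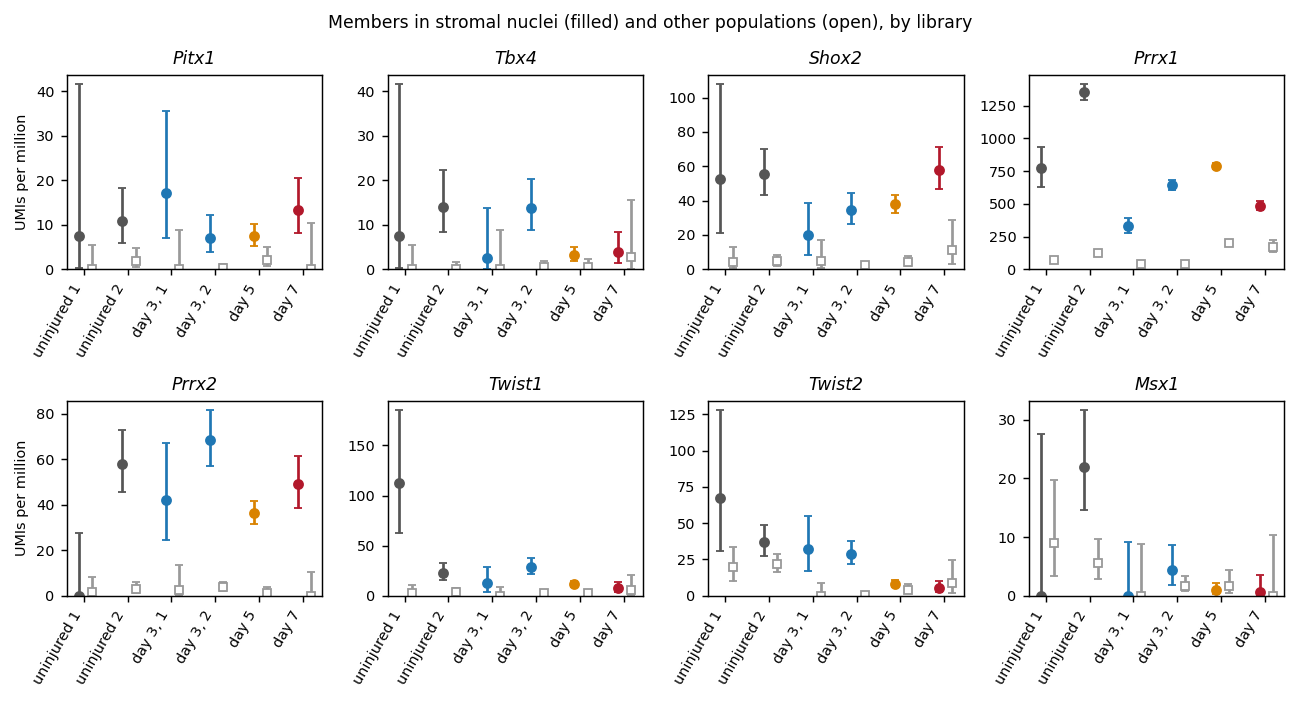
Level of each gene in CPM (vertical axis, 1 panel per gene with its own scale) in each library (horizontal axis), with filled circles for stromal nuclei, open squares for the other populations, and bars for exact Poisson 95% intervals. Prrx1 in stromal nuclei was 771 and 1353 without injury against 331 and 643 on day 3, and Twist2 lay below both uninjured values of 67.4 and 36.8 in every fractured library. How many of all genes part in these ways was not counted.

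Whether fracture moved these genes within stromal nuclei was tested on UMIs summed per library. At day 3 against uninjured, edgeR's quasi-likelihood test called 355 of 9417 genes higher (3.77%) and 492 lower (5.22%), 8.99% in all, at an adjusted p under 0.05. The count in all was 68 without uninjured library 2, and DESeq2 called 230 higher and 335 lower. Of the 8 genes, 6 passed the filter on low counts, all but Pitx1 and Msx1, and 0 were called by edgeR or by DESeq2. By edgeR 1 of the 6 was at an unadjusted p under 0.05, beside 1962 of all 9417 genes tested. Prrx1 was closest, at 771 and 1353 CPM without injury and 331 and 643 on day 3, values that do not overlap. Its log2 fold change was -1.24 (SE 0.41, adjusted p = 0.0846 by edgeR), and the adjusted p ran from 0.00999 to 0.465 over 18 alternatives, all with a negative fold change. It passed the threshold without uninjured library 1 (-1.60, edgeR adjusted p = 0.00999), without day 3 library 2 (-1.52, 0.0215) and with the Cell Ranger version as a term (-1.58, 0.0354), and not without uninjured library 2 (-0.71, 0.465). With 1 library left in a group, the fit takes that library to vary like the other group's. Uninjured library 1 is the only one of these 4 made with Cell Ranger 6.0.0, so the version term and leaving it out are nearly the same test.

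The makeup of the stromal nuclei differed between these libraries. IIFC-like nuclei were 13.3% and 4.70% of them without injury and 52.0% and 38.0% on day 3, and SSPC-like nuclei 36.7% and 28.9% against 8.00% and 11.3%. In fibroblast-like nuclei alone, Prrx1 was at 789 and 1540 CPM without injury, 347 and 630.0 on day 3, 789.8 on day 5 and 692 on day 7, and its log2 fold change on day 3 was -1.23 (edgeR adjusted p = 0.183). The 7 immune markers, all with UMIs in stromal nuclei, summed to 67.4 and 22.7 CPM of stromal UMIs without injury and 185.0 and 686 on day 3. The 6 endothelial markers, also all with UMIs, summed to 149.8 and 50.1 without injury and 14.8 and 33.4 on day 3. Myogenic markers (7 of 7 with UMIs) summed to 741 and 699 against 498 and 359, tenocyte markers (5 of 5) to 44.9 and 58.7 against 266 and 248, pericyte/SMC markers (6 of 6) to 172 and 90.0 against 76.5 and 88.7, and osteoclast markers (6 of 6) to 44.9 and 58.7 against 19.7 and 107.9. The immune, endothelial, myogenic and tenocyte sums did not overlap between the groups, and the pericyte/SMC sums were parted only by 90.0 against 88.7. With so few libraries in each group this is a description. The part of these nuclei and markers in the difference was not tested. Prrx1 in endothelial-like nuclei, the background, was 2.38 and 20.8 without injury and 32.5 and 53.4 on day 3.

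The other genes tested on day 3 gave log2 fold changes of -1.40 for Twist1 (SE 0.77, edgeR adjusted p = 0.345), -1.05 for Shox2 (SE 0.53, 0.288) and -0.72 for Twist2 (SE 0.58, 0.568). Those of Tbx4 and Prrx2 were -0.51 (SE 0.80, 0.801) and 0.39 (SE 0.69, 0.823). The levels of Shox2 and Twist2 did not overlap between the groups, and those of Twist1, Tbx4 and Prrx2 did. The share of all genes tested without overlap between these 2 and 2 libraries was not counted. The separation of Prrx1, Shox2 and Twist2 is therefore a description and not a result about these genes. The median log2 fold change was 0.02 over all genes tested.

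With days 3, 5 and 7 as 1 group of 4 libraries against the 2 uninjured ones, edgeR called 186 of 11479 genes higher (1.62%) and 474 lower (4.13%), 5.75% in all, where DESeq2 called 415 higher and 543 lower. The uninjured and day 3 libraries are those of the day 3 comparison, so the 2 comparisons are not independent. Of the 8 genes, 7 passed the filter, all but Msx1, and 0 were called by edgeR or DESeq2. By edgeR 2 of the 7, Twist1 and Prrx1, were at an unadjusted p under 0.05, beside 2367 of all 11479 genes tested. Twist1 had a log2 fold change of -1.89 (SE 0.69, adjusted p = 0.156), which was -0.64 (edgeR adjusted p = 0.713) without uninjured library 1 and passed the threshold with no filter on low counts (-1.78, 0.0183). Its adjusted p ran from 0.0183 to 0.713 over 20 alternatives. Twist2 had -1.51 (SE 0.71, edgeR adjusted p = 0.269) and Prrx1 -0.90 (SE 0.39, 0.235). Within the libraries made with Cell Ranger 7.1.0, Prrx1 was at 1353 in uninjured library 2 and at 331 and 643 on day 3, and within those made with 6.0.0 it was at 771 in uninjured library 1, 791 on day 5 and 484 on day 7. Tbx4 (-1.06, SE 0.76), Shox2 (-0.43, SE 0.47), Prrx2 (0.34, SE 0.64) and Pitx1 (0.11, SE 0.71) had edgeR adjusted p-values of 0.483 to 0.963. With no filter on low counts Msx1 had -3.09 (edgeR adjusted p = 0.0128), a value that rests on the 28 UMIs of uninjured library 2.

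**Figure D4:**
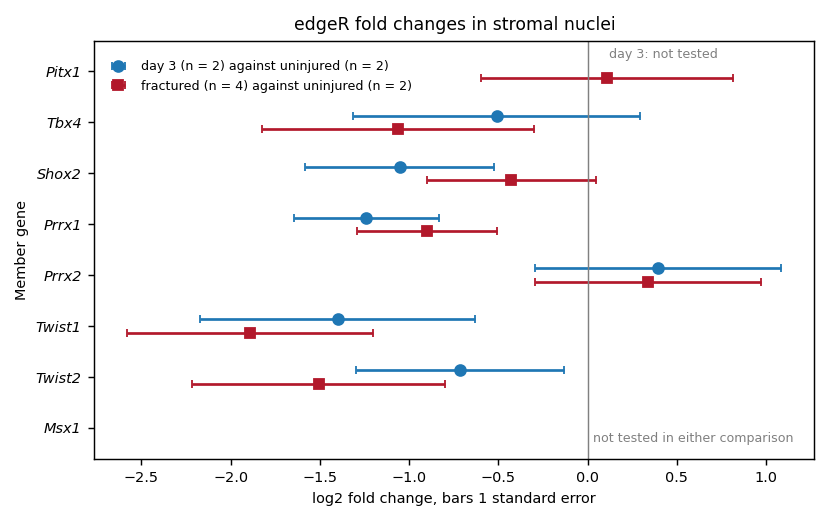
edgeR log2 fold change of each gene tested in stromal nuclei (horizontal axis, bars of 1 standard error), with circles for day 3 and squares for all fractured libraries, each against the 2 uninjured libraries. Prrx1 lies at -1.24 and -0.90, Twist1 at -1.40 and -1.89 and Prrx2 at 0.39 and 0.34, and none of the points passed an adjusted p of 0.05.

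Of 55 other genes of limb and mesenchyme identity, 23 were tested on day 3 and 1 was called, against 8.99% of all genes, a share that moves with the settings as given above. It was Pbx3, a homeobox cofactor of the TALE family, which rose. Its normalised level was 62.7 and 129 without injury and 323 and 359 CPM on day 3, a log2 fold change of 1.70 (SE 0.39, edgeR adjusted p = 0.0181). By list, 0 of 3 T-box genes, 1 of 8 homeobox genes, 0 of 3 E proteins (the partners of Twist factors), 0 of 3 Id proteins (inhibitors of such dimers) and 0 of 6 zinc finger and other limb factors were called. None of the 6 mesenchymal bHLH genes passed the filter. The median log2 fold change of the 23 genes was 0.09, beside 0.02 over all genes. Over all fractured libraries 30 were tested and again 1 was called, Pbx3 (2.10, SE 0.43, edgeR adjusted p = 0.0249), which had 582 and 428 CPM on days 5 and 7. The median was -0.15, beside 0.05 over all genes. On day 3 Pbx3 kept a positive fold change in all 18 alternatives and passed the threshold in 12, and not without uninjured library 1 (1.38, edgeR adjusted p = 0.0549), without uninjured library 2 (edgeR adjusted p = 0.0915), with the Cell Ranger version as a term (1.40, 0.0652) or in fibroblast-like nuclei alone (1.38, 0.0866), nor without the IIFC-like cluster led by Col5a3 (1.49, 0.0509) or over all kept nuclei (0.80, 0.154). Over all fractured libraries it passed in 17 of 20, and not without uninjured library 1 (1.75, edgeR adjusted p = 0.172), without uninjured library 2 (3.00, 0.104) or over all kept nuclei (1.33, 0.105).

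The genes whose levels were most alike over 50 sums of a population in a library, among 7388 genes, were Ddr2, a collagen receptor (Pearson's r = 0.947), and Tbx15, a T-box gene (0.927), for Prrx1. For Shox2 they were Adcy2 (0.818) and Hoxc8 (0.798), for Prrx2 Bicc1 (0.834) and Clmp (0.833), and for Twist2 Pde1a (0.722) and Adcy5 (0.721). Pitx1 was most alike Sec16b (0.716) and Kctd8 (0.666), Twist1 Dvl1 (0.674) and Htra3 (0.658), Tbx4 Igsf10 (0.642) and Adgrd1 (0.630), and Msx1 Rgs7bp (0.607) and Ntf3 (0.585). Among the 8 genes, Prrx1 and Shox2 were most alike (0.790) and Pitx1 and Msx1 least (-0.01). The sums share libraries and depth, so these values are descriptions.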

How the data were processed

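The members and all lists were chosen with earlier results of these data known. The deposited values were raw counts of unique molecular identifiers (UMIs) per gene and barcode, made by the authors with 10x Genomics 3′ chemistry and Cell Ranger, with intronic and exonic reads on mm10. The matrix headers name Cell Ranger 6.0.0 for uninjured library 1, day 5 and day 7 and 7.1.0 for the others. The labels give no replicate numbers, so libraries were numbered in accession order. The duplicates share no stated pairing.

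The filter kept nuclei in which 200 to 5000 genes were found and in which mitochondrial UMIs were below 2% and ribosomal UMIs below 1.5%. Myogenic clusters were removed first (3 or more markers, each found in 50% or more of the nuclei). The rest were integrated and clustered with Seurat 5.3.0 (R 4.3.3; 2000 features without the 8 genes and the markers, 20 components, resolution 1.3, seed 1). From this clustering, clusters in which myogenic markers scored highest were also removed, and the other nuclei were integrated and clustered again. In day 3 library 1, 753 nuclei passed the filter, 0 were removed first and 368 were left in the final clustering. The final clusters were named from their top 10 genes and from 3 or more markers, each found in 10% or more of the nuclei. The SSPC-like cluster scored highest for fibroblast markers and was named by Pi16 and Dpp4, by a rule set after the clusters were seen, and rebuilt names may differ from the study's. The doublet caller of scanpy 1.11.5 marked 8 nuclei (0.129%), so it did not work, and doublets remain.

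UMIs were summed per library over stromal nuclei and tested with edgeR 4.0.16 (filterByExpr, TMM, quasi-likelihood F-test, Benjamini-Hochberg adjustment), day 3 (n = 2) and all fractured libraries (n = 4) against uninjured (n = 2). DESeq2 1.42.0 and the other alternatives have their effects in the closing section. 3 of those were added after seeing the data: fibroblast-like nuclei alone, leaving out 1 IIFC-like cluster, and the Cell Ranger version as a term. The model script was tested on simulated data. Every member was named, with Tbx5, any called gene of the lists and the 2 genes most alike each member (Pearson's r over sums of at least 20 nuclei). Shares of nuclei were compared after thinning to 500 UMIs. A count of 0 allows 3 counts. Intervals are at 95%.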

Additional observations from a re-analysis of the deposited data

Results flagged for a closer look

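Of 16 groups of 4 or 6 libraries examined, 2 held a library far from the rest of its group, where chance gives about 1 in 20 groups. Tbx4 in stromal nuclei of the 4 fractured libraries was at 13.7 CPM in day 3 library 2 (25 UMIs), against 2.47, 3.17 and 3.82 in the other fractured libraries. The log2 ratio of Prrx2 between stromal and other nuclei was -0.20 in uninjured library 1, where 0 Prrx2 UMIs were found in 133532 stromal UMIs, and it reached 2.56 among the other 5 libraries.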

How the results depend on the processing

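Of 411 values computed under alternatives, 360 were the same as in the main setting. For a named gene, the same meant an unchanged direction and side of the threshold. For a count of called genes, it meant within 1.5 times the main count. The number of genes called at day 3 was 847, against 370 in fibroblast-like nuclei alone and 68 to 1069 with 1 library left out (68 without uninjured library 2). For all fractured libraries it was 660, against 1687 with no filter on low counts, 419 in fibroblast-like nuclei alone and 59 to 666 with 1 library left out (59 without uninjured library 2, 201 without uninjured library 1, 364 without day 5). The split moved by over 1.5 times with DESeq2 (230 higher and 335 lower on day 3, 415 and 543 in all fractured libraries), with no filter (587 and 551, 824 and 863), without the IIFC-like cluster led by Col5a3 (234 and 378 on day 3) and with the version term in all fractured libraries (360 and 536), beside 355 and 492 on day 3 and 186 and 474 in all fractured libraries. Signs turned in results that were not called. Prrx2 at day 3 was -0.14 with the Cell Ranger version as a term and ran from -0.16 to 8.55 with 1 library left out, the last fitted against a library at 0 and no bound. In all fractured libraries Prrx2 ran from -0.24 to 9.53 in the same way. Pitx1 was -0.32 in SSPC-like, fibroblast-like and IIFC-like nuclei alone, and -0.14 to 0.75 with 1 library left out. Over all kept nuclei Shox2 was 0.56 and Prrx1 0.0084. The cause was not tested. At clustering resolution 0.8, the genes higher in stromal nuclei in every library numbered 3 instead of 5, without Tbx4 and Twist1. The share of stromal nuclei with a Prrx1 UMI, averaged over libraries, was 23.4% at 500 UMIs, 40.9% at 1000 UMIs and 57.7% without thinning. No paired analysis was possible because the labels give the libraries no replicate numbers. Uninjured library 1, with 133532 stromal UMIs, limits what can be said of Pitx1, Tbx4, Prrx2 and Msx1, and days 5 and 7 had 1 library each.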
